A study of Mus musculus with 9 samples.

Results

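MA9-c-Kit+ cells and MA9-c-Kit- cells are the 2 fractions of a mouse acute myeloid leukemia, separated by flow cytometry on the surface receptor c-Kit. The RNA of 6 of the 9 libraries of the series was compared here, 3 libraries of MA9-c-Kit+ cells with 3 of MA9-c-Kit- cells, each taken by the cell type that its label names. The column used for MA9-c-Kit- replicate 3 carries no sign in its heading, and was assigned because MA9-c-Kit+ has a column numbered 3 of its own. Both fractions carried the MLL-AF9 fusion together with GFP, and both carried the blank BFP retrovirus (pMSCV-PGK-BFP), so that nothing but the sort separates them in the labels. GFP+BFP+ cells were given to C57BL/6J mice of 6 to 8 weeks without irradiation, and the leukemia cells were sorted from bone marrow on day 18. The remaining 3 libraries were of MA9-IL-34 cells, which carried IL-34 on the BFP retrovirus. They entered the estimate of the spread and the filter on low values. Among the genes that passed, 140 reached 1 TPM in those libraries alone. A filter on the 6 compared libraries passed 13063 genes instead of 13722. Nothing says that libraries of 1 fraction came from separate mice or from separate leukemias, so the p-values rest on the scatter of these libraries alone, which may be purely technical. The model rests on retroviral vectors in cells of an established leukemia, and the host marrow was left intact.

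c-Kit is the receptor of stem cell factor and marks normal stem and progenitor cells of the marrow. In MLL-AF9 leukemia the cells that renew the disease are found mainly among those that carry c-Kit, and cells that lose it look more like maturing granulocytes and monocytes. In normal maturation, proteins of primary granules are made first, in promyelocytes, and proteins of later granules, phagocytic receptors and monocyte proteins follow while division slows down. The comparison therefore asks which genes separate the less and the more mature side of the leukemia.

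Values are in TPM (transcripts scaled to a fixed library total), which correct for gene length and sum to nearly the same total in every library. They keep no read numbers, so the depth is unknown. Differences are log2 fold changes of MA9-c-Kit+ over MA9-c-Kit- cells on log2(TPM + 1), a scale that understates the change of low genes. A gene was called when it differed by 2-fold or more with an adjusted p below 0.05 (limma, Benjamini-Hochberg correction over 13722 genes), and the words higher and lower are kept for called genes. A bare number in parentheses after a gene is its log2 fold change, and medians of lists are medians of log2 fold changes. Kit itself (ENSMUSG00000005672, chromosome 5 from 75574916 to 75656722 of GRCm38) was at 135, 117 and 70.6 TPM in MA9-c-Kit+ libraries, against 2.46, 2.9 and 1.63 TPM in MA9-c-Kit- libraries. The 3 sorted positive libraries were all far above the 3 negative ones, so the labels fit the gene that the sort was made on (log2 fold change 4.99 with a standard error of 0.24, limma adjusted p = 4.08e-06). Among markers of the leukemia, Hoxa9 reached 479, 348 and 682 TPM in MA9-c-Kit+ libraries, against 434, 456 and 488 TPM in MA9-c-Kit- libraries, and Ptprc, the leukocyte antigen CD45, 69.5, 102 and 61.4 TPM in MA9-c-Kit+ libraries, against 225, 171 and 175 TPM in MA9-c-Kit- libraries. Ptprc was lower in MA9-c-Kit+ cells, and the 2 fractions did not overlap (log2 fold change -1.31 with a standard error of 0.19, limma adjusted p = 0.00107).

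Libraries of 1 fraction resembled each other more than libraries of different fractions, with Spearman correlations over the tested genes of 0.9396 to 0.9764 within and 0.8613 to 0.9071 between the fractions. A pair of libraries stood apart. MA9-c-Kit- replicate 3 held red cell transcripts: the summed level of the 19 erythroid markers found in the table was 23.2, 12.6 and 140.4 TPM in MA9-c-Kit+ libraries, against 68.5, 21.7 and 3189.7 TPM in MA9-c-Kit- libraries. Hbb-bs, a beta globin of the adult, was at 0.67, 0.43 and 13.4 TPM in MA9-c-Kit+ libraries, against 16.1, 1.52 and 1031 TPM in MA9-c-Kit- libraries, and Car1, Klf1 and Gata1 reached 418, 30 and 25.2 TPM in the same library. Hbb-bs was not called (adjusted p = 0.172, limma), and passed with the replicate number as a block (adjusted p = 0.0481). MA9-c-Kit+ replicate 3 was the highest of its fraction for the same sum. MA9-c-Kit+ replicate 2 was the highest of its fraction for Csf1r, Irf8, Lyz2 and Cd74, and it had the smallest share of mitochondrial RNA, 5.1% of TPM, where the other 5 libraries had between 8.79% and 11.1%. Immediate early genes differed by replicate number in both fractions. Fos was at 176, 97.6 and 18.5 TPM in MA9-c-Kit+ libraries, against 890, 575 and 150 TPM in MA9-c-Kit- libraries, and replicate 1 was the highest and replicate 3 the lowest on both sides. With replicate 2 of MA9-c-Kit+ and replicate 3 of MA9-c-Kit- both left out, a choice made after their values were seen, 1100 genes were higher and 1585 lower.

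**Figure D1:**
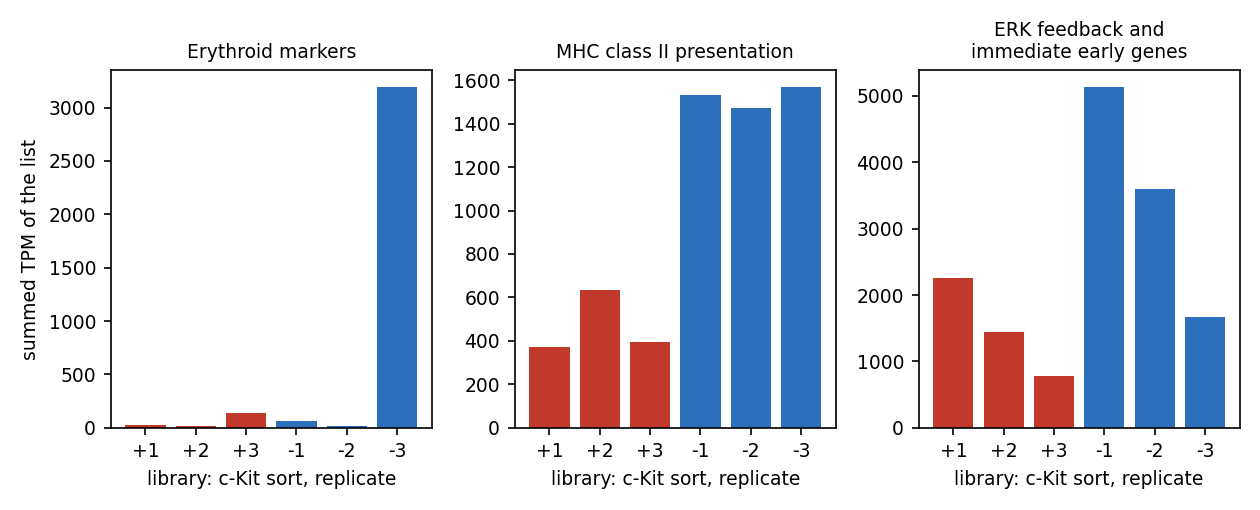
Summed TPM (y axis) of 3 gene lists (erythroid, MHC class II, and ERK feedback with immediate early genes) in each of the 6 libraries (x axis, + for MA9-c-Kit+ in red and - for MA9-c-Kit- in blue, with the replicate number). The erythroid sum stands at 3190 TPM in MA9-c-Kit- replicate 3 and at 140 TPM or less in the other libraries. The MHC class II sum is highest in replicate 2 among MA9-c-Kit+ libraries. The sum of ERK feedback and immediate early genes is highest in replicate 1 and lowest in replicate 3 on both sides.

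Of 13722 genes tested, 2033 were called, which is 14.8%. MA9-c-Kit+ cells were higher for 777 (5.66%) and lower for 1256 (9.15%). The losses were also deeper. The median log2 fold change was 1.28 for genes called higher and -1.55 for genes called lower, and 8 genes were at least 16-fold higher against 70 that were at least 16-fold lower, while the median of all tested genes was 0.03. Leaving out each of the 6 libraries in turn, 430 of the 777 genes (55.3%) and 929 of the 1256 (74%) were called every time. Of all tested genes, 7147 had a positive and 6575 a negative log2 fold change. Libraries of the fractions did not overlap for 3190 genes above (23.2%) and 3071 below (22.4%). In bulk RNA, fewer cells of a kind and less RNA per cell cannot be told apart, and this holds for every difference given here.

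**Figure D2:**
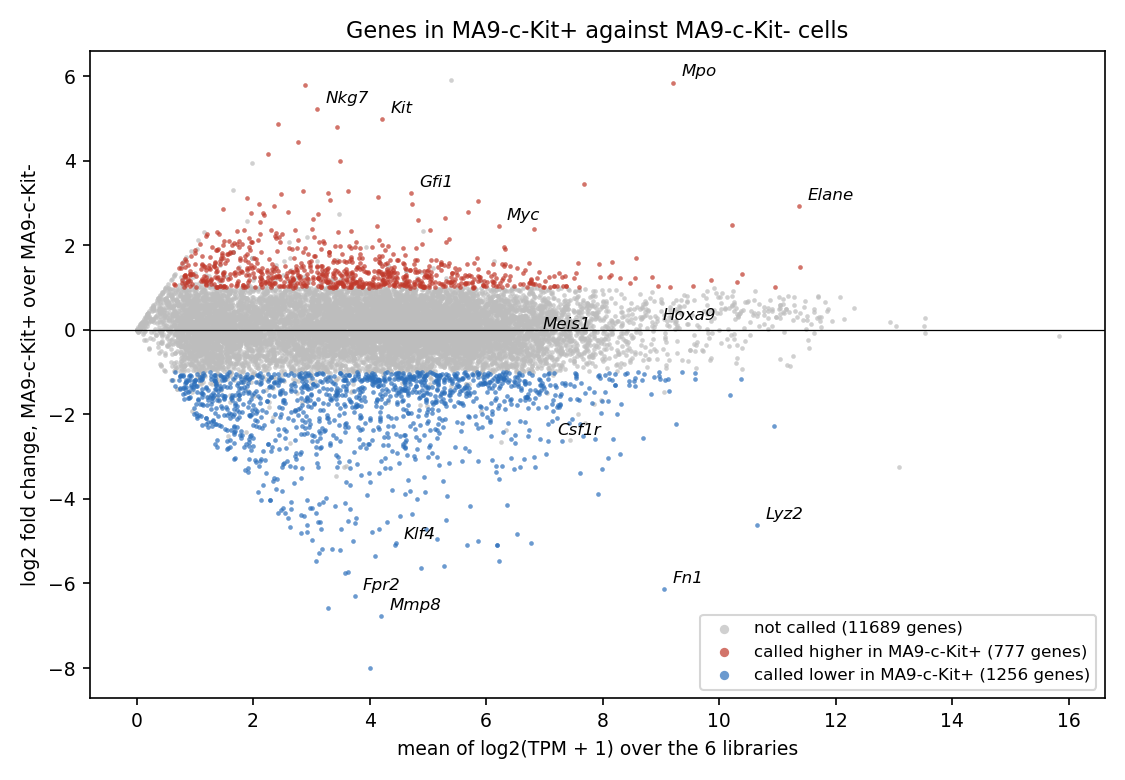
Each tested gene by its mean level (x axis, log2(TPM + 1) over the 6 libraries) and its log2 fold change of MA9-c-Kit+ over MA9-c-Kit- cells (y axis). Red points are the 777 genes called higher, blue points the 1256 called lower and grey points the others; the lowest point is mt-Nd4l, which was listed at 0 in MA9-c-Kit+ cells.

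Genes of stem and progenitor cells were partly higher in MA9-c-Kit+ cells. Of 25 stem and progenitor transcription factors listed, 20 passed the filter, and 6 were higher and none lower (median 0.21). Gfi1, a repressor that holds back monocyte genes and is needed in granulocyte precursors, was at 109, 80.4 and 56.1 TPM in MA9-c-Kit+ libraries, against 5.42, 10.9 and 7.09 TPM in MA9-c-Kit- libraries. Each MA9-c-Kit+ library was at least 5 times as high as each MA9-c-Kit- library (log2 fold change 3.23 with a standard error of 0.27, limma adjusted p = 5.7e-05). Myc, which drives growth and ribosome synthesis, was at 281, 219 and 84.5 TPM in MA9-c-Kit+ libraries, against 29.9, 33.9 and 28.5 TPM in MA9-c-Kit- libraries. Replicate 3 was the lowest MA9-c-Kit+ library and still above all others (log2 fold change 2.46 with a standard error of 0.38, limma adjusted p = 0.00136). Myb, a factor on which MLL-AF9 cells depend, was at 495, 481 and 360.3 TPM in MA9-c-Kit+ libraries, against 185, 191 and 164 TPM in MA9-c-Kit- libraries, again without overlap (log2 fold change 1.29). Sox4 (log2 fold change 2.28) was higher as well, with 27.3 TPM in MA9-c-Kit+ replicate 2 and 7.31 and 5.69 TPM in the others. Gata2 (20.6, 41.9 and 15.1 TPM in MA9-c-Kit+ libraries, against 6.38, 6.15 and 15.8 TPM in MA9-c-Kit- libraries) and Sox13 (10.8, 5.12 and 10.9 TPM in MA9-c-Kit+ libraries, against 4.35, 3.61 and 2.87 TPM in MA9-c-Kit- libraries) were called on less ground. Gata2 overlapped, since MA9-c-Kit- replicate 3, the library with red cell transcripts, was at 15.8 TPM, and its adjusted p of 0.0295 (limma) went to 0.0927 with the replicate number as a block. It also failed without MA9-c-Kit+ replicate 1 (adjusted p = 0.0551) or 2 (0.074), or MA9-c-Kit- replicate 1 or 2 (0.0992 each). Sox13, with a log2 fold change of 1.05, fell under the fold of 2 without MA9-c-Kit+ replicate 1 (0.90) or 3 (0.89) or MA9-c-Kit- replicate 3 (0.93).

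Surface proteins of progenitors went both ways. Of 26 listed, 19 passed the filter, with 5 higher (Kit, by the sort, among them) and 3 lower (median 0.36). Prom1, the stem cell antigen CD133, was at 8.85, 2.54 and 4.09 TPM in MA9-c-Kit+ libraries, against 0.55, 0.17 and 0.47 TPM in MA9-c-Kit- libraries (log2 fold change 2.02). Angpt1, the ligand of the receptor Tie2, was at 5.79, 15.3 and 3.97 TPM in MA9-c-Kit+ libraries, against 0.96, 0.94 and 0.88 TPM in MA9-c-Kit- libraries (log2 fold change 2.09). Both were low, and all MA9-c-Kit- libraries were under 1 TPM. Itga6 had a log2 fold change of 1.12 and of 0.94 without MA9-c-Kit+ replicate 2. Without that library 3 members were called higher. Cd34, the antigen of early progenitors, was at 115, 343 and 46.8 TPM in MA9-c-Kit+ libraries, against 51.6, 45.5 and 24.9 TPM in MA9-c-Kit- libraries. It overlapped and was not called (adjusted p = 0.0691, limma), but passed with the replicate number as a block (adjusted p = 0.0337) and without MA9-c-Kit+ replicate 3 (log2 fold change 2.33, adjusted p = 0.0102). Flt3, the receptor of FLT3 ligand, went the other way without a call, at 67.4, 5.45 and 67.1 TPM in MA9-c-Kit+ libraries, against 179.6, 99.1 and 87.3 TPM in MA9-c-Kit- libraries, and replicate 2 again stood apart. Csf2rb and Csf2rb2, beta chains of the GM-CSF and IL-3 receptors, were lower (log2 fold changes -1.31 and -1.70), as was Emb (-1.21).

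The program that MLL-AF9 maintains was nearly level between the fractions. Of 22 genes of the MLL-AF9 list that passed the filter out of 23, none was higher and 1 was lower, and 11 had a positive and 11 a negative log2 fold change (median -0.07). Meis1, the partner of Hoxa9 in this leukemia, was at 96, 103 and 127 TPM in MA9-c-Kit+ libraries, against 125, 113 and 118 TPM in MA9-c-Kit- libraries. The difference lay within the spread of the libraries (log2 fold change -0.14 with a standard error of 0.13, limma adjusted p = 0.434), and the same held for Hoxa9 (log2 fold change 0.08, standard error 0.20), Hoxa10 (0.08, 0.23) and Mef2c (-0.42, 0.22). Such p-values do not show that the levels are equal. Pbx3, another partner of the HOX proteins, was called lower at 6.19, 8.35 and 7.67 TPM in MA9-c-Kit+ libraries, against 13.8, 13.3 and 25 TPM in MA9-c-Kit- libraries (log2 fold change -1.08), but its size went under the fold of 2 without MA9-c-Kit+ replicate 1 (-0.97) or MA9-c-Kit- replicate 3 (-0.80).

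Of 20 proteins of primary granules listed, 17 passed the filter, 8 were higher and 2 lower (median 1.49). Mpo, the peroxidase that makes hypochlorous acid, was at 6711, 8177 and 1639 TPM in MA9-c-Kit+ libraries, against 109, 153 and 26.8 TPM in MA9-c-Kit- libraries. MA9-c-Kit+ replicate 3 was the lowest of its fraction and MA9-c-Kit- replicate 3 the lowest of the other, and the fractions were more than 10-fold apart at their nearest libraries (log2 fold change 5.85 with a standard error of 0.72, limma adjusted p = 0.000442). Elane, neutrophil elastase, was at 8716, 7670.1 and 5945 TPM in MA9-c-Kit+ libraries, against 935, 1349 and 701 TPM in MA9-c-Kit- libraries (log2 fold change 2.94 with a standard error of 0.26, limma adjusted p = 7.29e-05). Ctsg, the protease cathepsin G, was at 3114, 2293 and 3140.3 TPM in MA9-c-Kit+ libraries, against 472, 553 and 488 TPM in MA9-c-Kit- libraries (log2 fold change 2.48). Prtn3, proteinase 3, was at 4527, 5418 and 3708 TPM in MA9-c-Kit+ libraries, against 1399.5, 1916 and 1531 TPM in MA9-c-Kit- libraries (log2 fold change 1.49). None of these 4 overlapped between the fractions. Ms4a3, a protein of granulocyte and monocyte progenitors, was at 737, 609.6 and 699 TPM in MA9-c-Kit+ libraries, against 43.4, 60.6 and 87.6 TPM in MA9-c-Kit- libraries (log2 fold change 3.45), and Nkg7, a granule membrane protein, at 76.1, 67.8 and 25.9 TPM in MA9-c-Kit+ libraries, against 0.68, 0.45 and 0.14 TPM in MA9-c-Kit- libraries (log2 fold change 5.22 with a standard error of 0.36, limma adjusted p = 2.16e-05). The 2 members that were lower were Lyz2, lysozyme, at 245, 1072 and 127 TPM in MA9-c-Kit+ libraries, against 7805, 11715 and 5461 TPM in MA9-c-Kit- libraries (log2 fold change -4.62), and Ctsc, which activates the serine proteases by cleaving them, at 44.5, 60.1 and 41.4 TPM in MA9-c-Kit+ libraries, against 129.6, 164 and 161 TPM in MA9-c-Kit- libraries (log2 fold change -1.63). Lyz2 is also held in later granules and in macrophages.

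Of 28 proteins of secondary and tertiary granules, 22 passed the filter, 7 were lower and 1 was higher (median -0.77). Mmp8, the neutrophil collagenase, was at 0.78, 0.81 and 0.69 TPM in MA9-c-Kit+ libraries, against 202, 162 and 211 TPM in MA9-c-Kit- libraries. It was nearly missing from one fraction and moderately high in the other, the largest fall among genes above 0 in both (log2 fold change -6.77 with a standard error of 0.21, limma adjusted p = 8.94e-07). Lcn2, which binds bacterial iron carriers, was at 69, 16.4 and 50.7 TPM in MA9-c-Kit+ libraries, against 382, 258 and 330.2 TPM in MA9-c-Kit- libraries (log2 fold change -3.01), and Ceacam1 and Anxa1 were lower at log2 fold changes of -1.93 and -1.83. The list did not move as 1 block. Camp, the cathelicidin of secondary granules, was the member called higher, at 25.7, 23.1 and 1.5 TPM in MA9-c-Kit+ libraries, against 1.21, 0.26 and 0.81 TPM in MA9-c-Kit- libraries (log2 fold change 2.77 with a standard error of 0.80, limma adjusted p = 0.0238). That call rests on few libraries: without MA9-c-Kit+ replicate 1 or 2 or MA9-c-Kit- replicate 2 its adjusted p was 0.0816, 0.0676 or 0.0751, and without MA9-c-Kit+ replicate 3 there were 4 members called higher. Ltf (0.92, 3.12 and 0 TPM in MA9-c-Kit+ libraries, against 0.73, 0.05 and 0.24 TPM in MA9-c-Kit- libraries) and Mmp9 (0.21, 0.24 and 0.14 TPM in MA9-c-Kit+ libraries, against 1.61, 0.96 and 1.06 TPM in MA9-c-Kit- libraries) were low in both fractions and not called. Chil3, chosen here after its values were seen, had the highest TPM of the list, 6671, 478 and 6974 TPM in MA9-c-Kit+ libraries, against 26916, 29944 and 23879 TPM in MA9-c-Kit- libraries, with MA9-c-Kit+ replicate 2 far below the other 2, and was not called (adjusted p = 0.101, limma).

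Promoter sequences are given for 2 granule proteases that went opposite ways, for Mpo, for Itgam, and for a replication gene, because the letters searched occur in both directions. Each line is the 250 bases before the start site in RefSeq annotation on GRCm38.p6, 5′ to 3′ on the strand of the gene, with matches in capitals. For Mpo (chr11:87793534-87793783, plus strand), Ctsg (chr14:56102575-56102824, minus strand), Mmp8 (chr9:7558179-7558428, plus strand) and Itgam (chr7:128062390-128062639, plus strand) the capitals mark GAGGAAG on either strand, the core bound by the myeloid factor PU.1, and for Mcm6 (chr1:128359706-128359955, minus strand) TTTGGCG, 1 of the 2 forms searched for E2F factors.
Mpo: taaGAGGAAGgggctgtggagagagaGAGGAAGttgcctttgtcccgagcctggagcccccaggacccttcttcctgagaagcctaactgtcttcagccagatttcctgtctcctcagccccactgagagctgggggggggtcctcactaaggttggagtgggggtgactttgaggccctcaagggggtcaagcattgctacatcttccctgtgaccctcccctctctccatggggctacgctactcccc
Ctsg: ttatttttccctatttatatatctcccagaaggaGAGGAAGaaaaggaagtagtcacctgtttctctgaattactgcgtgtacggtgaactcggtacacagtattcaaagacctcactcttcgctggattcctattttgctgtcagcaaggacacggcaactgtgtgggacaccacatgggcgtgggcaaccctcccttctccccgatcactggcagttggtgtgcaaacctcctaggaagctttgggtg
Mmp8: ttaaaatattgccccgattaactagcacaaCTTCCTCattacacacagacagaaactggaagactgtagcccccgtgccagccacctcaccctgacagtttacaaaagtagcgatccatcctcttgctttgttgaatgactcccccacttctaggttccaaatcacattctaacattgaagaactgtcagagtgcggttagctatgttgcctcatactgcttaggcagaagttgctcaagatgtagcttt
Itgam: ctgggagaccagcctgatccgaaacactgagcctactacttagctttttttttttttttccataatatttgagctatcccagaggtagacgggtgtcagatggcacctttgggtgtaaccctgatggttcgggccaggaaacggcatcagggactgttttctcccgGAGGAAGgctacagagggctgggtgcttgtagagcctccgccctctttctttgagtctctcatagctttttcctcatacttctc
Mcm6: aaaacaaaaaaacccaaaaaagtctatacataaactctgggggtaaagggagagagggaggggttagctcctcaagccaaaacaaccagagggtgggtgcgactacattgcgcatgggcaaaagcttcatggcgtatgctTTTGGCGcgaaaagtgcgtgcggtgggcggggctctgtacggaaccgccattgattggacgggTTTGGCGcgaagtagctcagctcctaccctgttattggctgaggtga
The letters lie 247 and 224 bases before the start of Mpo, 216 bases before that of Ctsg, 220 before that of Mmp8, 84 before that of Itgam, and 110 and 47 before that of Mcm6. Windows were found for 574 of the 777 genes called higher, 922 of the 1256 called lower and 9571 of all genes tested. GAGGAAG stood in 13.3% of windows of higher genes, 17.4% of windows of lower genes and 13.8% of all. It stood in 42.9% of the 14 windows of primary granule genes and in 34.3% of the 35 windows of monocyte and macrophage genes. The E2F letters (TTTGGCG or TTTCCCG) stood in 8.88% of windows of higher genes, 4.45% of lower genes and 8.07% of all, and in 38.9% of the 54 windows of S phase genes. The E-box CACGTG, bound by MYC among others, was in 14.3% of windows of higher genes, 8.65% of lower genes and 10% of all, and in 18.3% of the 60 windows of ribosome biogenesis genes. GAGGAAG was also in 21.7% of the 23 windows of Toll-like receptor genes and adaptors. The AP-1 letters (TGANTCA) were in 5.41% of windows of higher genes, 7.11% of lower genes and 4.98% of all, and in 0% of the 29 windows of ERK feedback and immediate early genes. In the same order, C/EBP letters (TTGCAAT) in 1.39%, 1.62% and 1.36%, RUNX letters (TGTGGT) in 14%, 14.5% and 13.1%, and the CCAAT box (CCAAT) in 38.7%, 34.2% and 38.3%. Both strands were searched, and a gene may have more than 1 window, so that there were 721, 1237 and 12180 windows. A match is a string of letters and not a measured binding site.

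**Figure D3:**
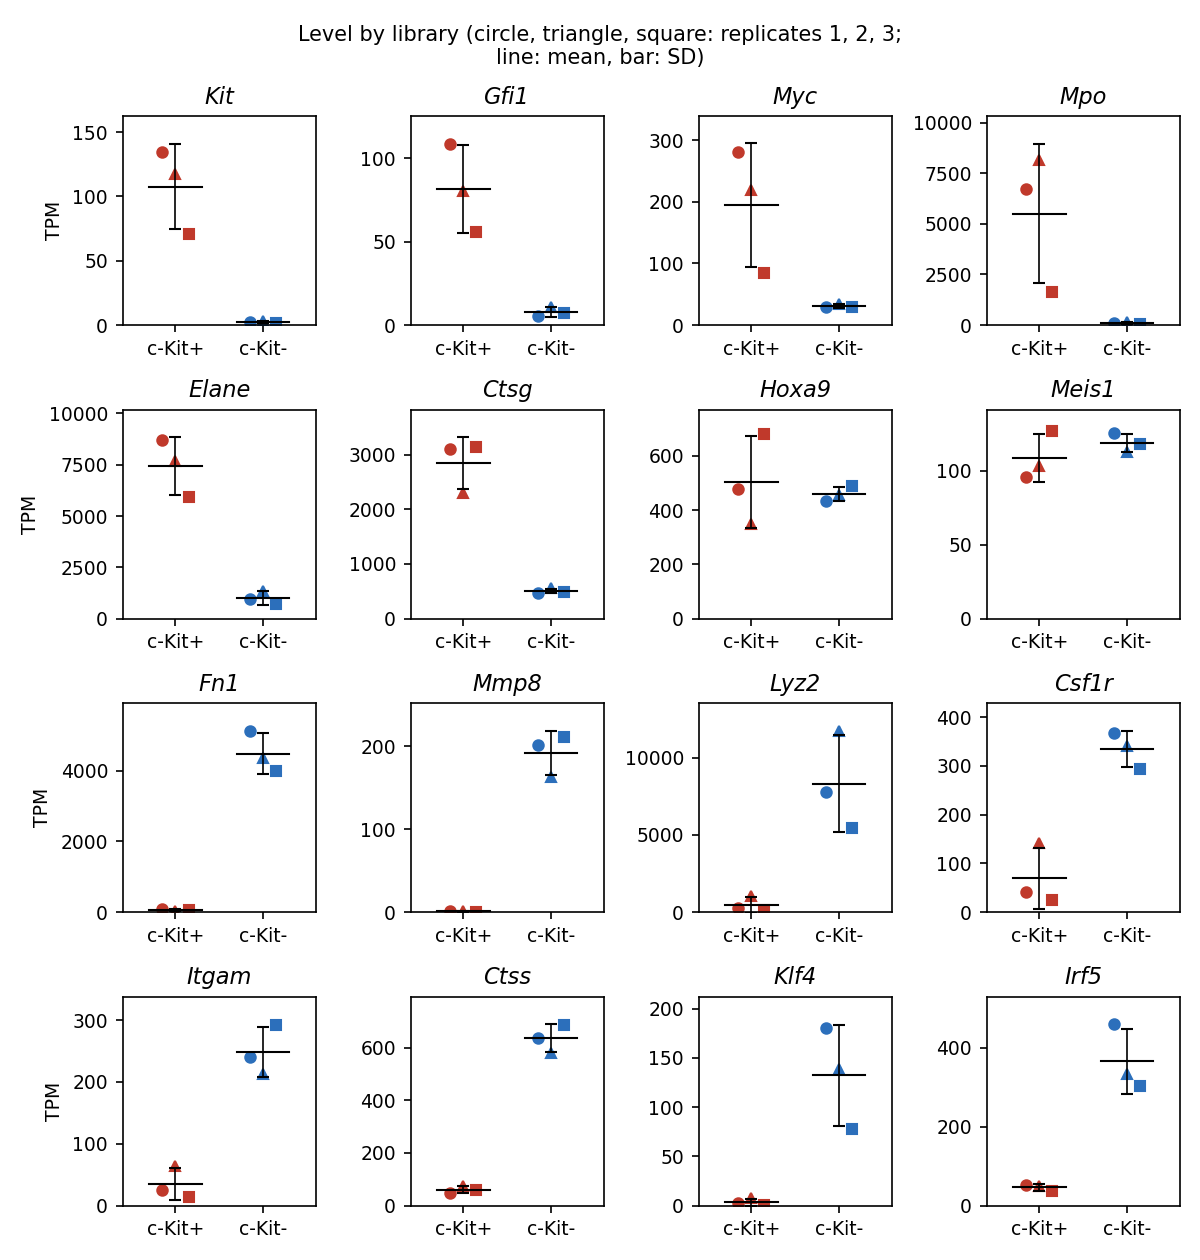
TPM (y axes, each from 0) of 16 genes in MA9-c-Kit+ (red, left) and MA9-c-Kit- libraries (blue, right), with the mean and SD of 3 libraries. Kit, Gfi1, Myc, Mpo, Elane and Ctsg sit higher and the 8 genes from Fn1 to Irf5 lower in MA9-c-Kit+ cells without overlap, while Hoxa9 and Meis1 overlap.

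Receptors and cytosolic proteins of maturing neutrophils were mostly lower. In the list of 25, 23 passed the filter, 14 were lower and 2 higher (median -1.29). Fpr2, a receptor of formylated peptides from bacteria, was at 0.53, 0.51 and 0.5 TPM in MA9-c-Kit+ libraries, against 157, 96.4 and 107 TPM in MA9-c-Kit- libraries (log2 fold change -6.29 with a standard error of 0.20, limma adjusted p = 8.94e-07). Fpr1 had a log2 fold change of -3.84, Ifitm6 of -5.48 and the inhibitory receptor Pirb of -5.10. Pirb reached 10.4, 19.2 and 7.36 TPM in MA9-c-Kit+ libraries, against 517, 397 and 375 TPM in MA9-c-Kit- libraries. Cd177 was lower (-1.65), and Ly6g, the usual surface marker of mature mouse neutrophils, stayed under 1 TPM in all 6 libraries. S100a9 was at 58.9, 65.3 and 9.1 TPM in MA9-c-Kit+ libraries, against 58.8, 48.1 and 22.2 TPM in MA9-c-Kit- libraries and was not called. S100a8 was called (log2 fold change -1.29, adjusted p = 0.048, limma), though with the replicate number as a block its adjusted p was 0.0721. It also lost the call without MA9-c-Kit+ replicate 3 (adjusted p = 0.057) and without any 1 of the MA9-c-Kit- libraries (0.11, 0.0896 and 0.103). The 2 members that were higher were Mrgpra2a and Mrgpra2b, receptors of the MAS-related family. Mrgpra2b was at 34, 16.7 and 12.4 TPM in MA9-c-Kit+ libraries, against 0, 0.39 and 0.06 TPM in MA9-c-Kit- libraries (log2 fold change 4.15). These 2 genes are close copies, and reads may have been split between them.

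Among transcription factors of granulocyte and monocyte fate, 30 of 33 passed the filter, 15 were lower and only Gfi1 was higher (median -1.07). Klf4, which promotes monocyte fate, was at 3.13, 7.5 and 0.45 TPM in MA9-c-Kit+ libraries, against 179.8, 139 and 78.3 TPM in MA9-c-Kit- libraries (log2 fold change -5.09 with a standard error of 0.58, limma adjusted p = 0.000305). Irf5, a factor of inflammatory macrophages, was at 52.1, 49.8 and 37 TPM in MA9-c-Kit+ libraries, against 459, 334 and 303 TPM in MA9-c-Kit- libraries (log2 fold change -2.95 with a standard error of 0.19, limma adjusted p = 1.6e-05). Both were lower without overlap. Klf6 (-2.80), Nr4a1 (-3.49), which nonclassical monocytes need, and Tfeb (-1.46), the main regulator of lysosomal genes, were lower too. Spi1, which encodes PU.1, was at 311, 268 and 291 TPM in MA9-c-Kit+ libraries, against 633, 569 and 589.7 TPM in MA9-c-Kit- libraries. Its difference was small and even across libraries (log2 fold change -1.04, standard error 0.10), and fell just under the fold of 2 without MA9-c-Kit+ replicate 2 (-0.983) or MA9-c-Kit- replicate 1 (-0.996). Irf8, which favours monocytes over neutrophils, was at 203, 476 and 124 TPM in MA9-c-Kit+ libraries, against 551, 628 and 434 TPM in MA9-c-Kit- libraries. The fractions overlapped through MA9-c-Kit+ replicate 2, and its adjusted p of 0.0413 (limma) became 0.0507 to 0.119 without any 1 of the other 5 libraries. Cebpa (90, 111 and 57.5 TPM in MA9-c-Kit+ libraries, against 182, 130 and 108 TPM in MA9-c-Kit- libraries) was not called, and Cebpe, of late granulocyte precursors, at 57.4, 61.8 and 9.37 TPM in MA9-c-Kit+ libraries, against 23.3, 10.2 and 4.87 TPM in MA9-c-Kit- libraries, was called only with the replicate number as a block (adjusted p = 0.0258) or without MA9-c-Kit+ replicate 3 (log2 fold change 2.38, adjusted p = 0.0068).

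Markers of monocytes and macrophages were the most often lower of the lists with at least 20 members that passed the filter. Of 42 listed, 35 passed, 24 were lower and 3 higher (median -2.51), and without any 1 library 20 to 27 were lower. Fn1, fibronectin, was at 97, 43.8 and 56.4 TPM in MA9-c-Kit+ libraries, against 5111, 4352 and 3987 TPM in MA9-c-Kit- libraries. Every MA9-c-Kit+ library was below every MA9-c-Kit- library (log2 fold change -6.14 with a standard error of 0.38, limma adjusted p = 1.15e-05). Gpnmb, a glycoprotein of lysosomes, was at 6.08, 0.86 and 11.9 TPM in MA9-c-Kit+ libraries, against 331, 182 and 317 TPM in MA9-c-Kit- libraries (log2 fold change -5.60). Csf1r, the receptor of M-CSF and IL-34, was at 40.8, 141 and 25.6 TPM in MA9-c-Kit+ libraries, against 368, 340 and 294 TPM in MA9-c-Kit- libraries. It did not overlap, although MA9-c-Kit+ replicate 2 was more than 3 times as high as the others of its fraction (log2 fold change -2.62 with a standard error of 0.50, limma adjusted p = 0.00367). Itgam, which encodes CD11b, was at 25.5, 64.5 and 14.7 TPM in MA9-c-Kit+ libraries, against 240.1, 213 and 293 TPM in MA9-c-Kit- libraries (log2 fold change -3.04), and Ccr2, the chemokine receptor of classical monocytes, at 21.3, 39.1 and 24.9 TPM in MA9-c-Kit+ libraries, against 188, 176 and 126 TPM in MA9-c-Kit- libraries (log2 fold change -2.51). Cd14 (-3.22), Apoe (-2.59), Emilin2 (-4.17) and Vcan (-4.34) were lower as well. Ly6c2, the surface marker of classical monocytes, was high in both fractions, at 3078, 3558 and 1833 TPM in MA9-c-Kit+ libraries, against 3438, 4349.9 and 2203 TPM in MA9-c-Kit- libraries, and was not called. Adgre1, which encodes F4/80, was called lower (log2 fold change -2.01, adjusted p = 0.0274, limma), but not without MA9-c-Kit+ replicate 1 or 3 or MA9-c-Kit- replicate 1 or 2 (adjusted p = 0.0802, 0.0725, 0.0928 and 0.0618). Cx3cr1, at 16.4, 43.7 and 5.28 TPM in MA9-c-Kit+ libraries, against 85.7, 79.1 and 28.5 TPM in MA9-c-Kit- libraries, passed with the replicate number as a block (adjusted p = 0.0153) and without MA9-c-Kit+ replicate 2 or MA9-c-Kit- replicate 3 (0.00951 and 0.0312), but not otherwise (adjusted p = 0.0597, limma). The 3 members called higher were all low: Vcam1 at 2.73, 3.21 and 2.38 TPM in MA9-c-Kit+ libraries, against 0.15, 0 and 0.04 TPM in MA9-c-Kit- libraries, and C1qa and C1qc, which stayed under 3 TPM and lost the call without MA9-c-Kit+ replicate 2 or 3 or MA9-c-Kit- replicate 1 or 3.

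**Figure D4:**
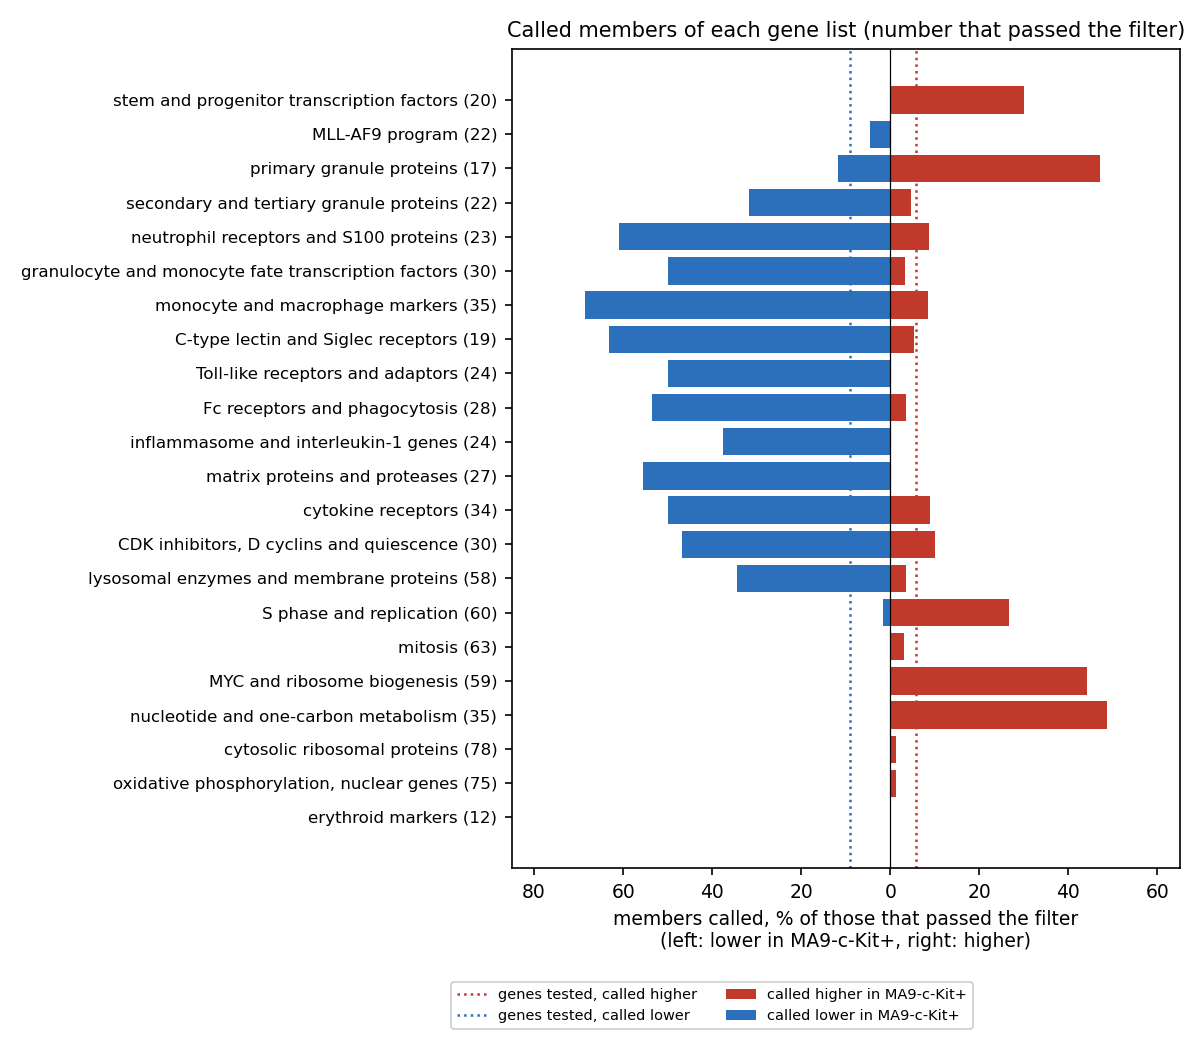
Share of the members that passed the filter (x axis, %) called higher (red, right) or lower (blue, left) in MA9-c-Kit+ cells for 22 gene lists (y axis, number that passed in parentheses). Dotted lines give the same shares over all tested genes, 5.66% and 9.15%; monocyte and macrophage markers reach 68.6% lower, nucleotide and one-carbon metabolism 48.6% higher.

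Of 24 Toll-like receptor genes and adaptors that passed the filter (27 listed), 12 were lower and none higher (median -0.97). Tlr8 was at 1.4, 0.4 and 0.07 TPM in MA9-c-Kit+ libraries, against 61.1, 27.2 and 29.2 TPM in MA9-c-Kit- libraries (log2 fold change -4.62), Tlr13, which senses bacterial ribosomal RNA, had a log2 fold change of -4.35, Tlr7 of -2.87 and Tlr2 of -2.34. Tlr4, the receptor of lipopolysaccharide, was low on both sides at 4.73, 2.62 and 8.15 TPM in MA9-c-Kit+ libraries, against 3.67, 6.31 and 11.2 TPM in MA9-c-Kit- libraries and was not called. C-type lectins and Siglecs were lower for 12 of 19 (median -2.13), among them Clec4a1 (-5.19) and Clec4e (-3.56). Mgl2, a galactose-binding lectin, was the exception, at 14, 38.8 and 7.14 TPM in MA9-c-Kit+ libraries, against 0.53, 2.17 and 0.26 TPM in MA9-c-Kit- libraries (log2 fold change 3.21 with a standard error of 0.53, limma adjusted p = 0.00185). Of 28 genes of Fc receptors and phagocytosis, 15 were lower (median -1.13). Fgr, a kinase of the SRC family in mature phagocytes, was at 0.7, 1.16 and 0.78 TPM in MA9-c-Kit+ libraries, against 34, 29.5 and 39.1 TPM in MA9-c-Kit- libraries (log2 fold change -4.22 with a standard error of 0.17, limma adjusted p = 1.65e-06), and its relative Lyn had a log2 fold change of -1.86. Trem2 was lower at a log2 fold change of -3.06, and Fcer1g, the shared signalling chain of Fc receptors, by -1.17. Olr1, a scavenger receptor of oxidized lipoprotein, was higher (19, 25.7 and 14.4 TPM in MA9-c-Kit+ libraries, against 4.59, 2.38 and 0.87 TPM in MA9-c-Kit- libraries).

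Genes of the inflammasome and of interleukin-1 were lower for 9 of 24 (median -0.68). Nlrp3, the sensor, was at 6.74, 8.74 and 2.94 TPM in MA9-c-Kit+ libraries, against 67.1, 64.4 and 36.1 TPM in MA9-c-Kit- libraries (log2 fold change -3.04), Il1b, the cytokine it helps release, at 1.13, 2.06 and 0.13 TPM in MA9-c-Kit+ libraries, against 21.2, 23 and 8.53 TPM in MA9-c-Kit- libraries (-3.14), and P2rx7, the ATP receptor that triggers it, had a log2 fold change of -3.15. Casp1, the protease, was level at 40.3, 48.6 and 29.8 TPM in MA9-c-Kit+ libraries, against 52.1, 44.6 and 39 TPM in MA9-c-Kit- libraries and not called. In the NADPH oxidase of phagocytes, 4 of 12 were lower. Cybb, its catalytic subunit, was at 73.3, 69.9 and 47.4 TPM in MA9-c-Kit+ libraries, against 433, 359.6 and 382 TPM in MA9-c-Kit- libraries (log2 fold change -2.63 with a standard error of 0.27, limma adjusted p = 0.000171), whereas the cytosolic subunit Ncf4 was lower at a log2 fold change of -1.07 and Ncf1 was not called (316, 271 and 195 TPM in MA9-c-Kit+ libraries, against 509, 347 and 251 TPM in MA9-c-Kit- libraries). Cyba lay at the fold of 2 (-1.01), and lost its call without MA9-c-Kit+ replicate 1 (-0.91) or 3 (-0.91) or MA9-c-Kit- replicate 2 (-0.98). Complement genes split, 4 higher and 4 lower of 19. C5ar1 was lower at a log2 fold change of -2.85, and C2 was higher at 46.1, 47.3 and 44 TPM in MA9-c-Kit+ libraries, against 10.5, 10.2 and 13 TPM in MA9-c-Kit- libraries (1.94). The other 3 that were higher, C1qa, C1qc and C1qbp, each lost the call without MA9-c-Kit- replicate 1. Of the 4, 2 were called without MA9-c-Kit+ replicate 2 or MA9-c-Kit- replicate 3.

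Lysosomal genes were lower for 20 of the 58 that passed the filter of 60 listed, and 47 of the 58 had a negative log2 fold change (median -0.54). Ctss, cathepsin S, which trims the invariant chain of MHC class II, was at 49, 74.1 and 58.5 TPM in MA9-c-Kit+ libraries, against 637, 581 and 687 TPM in MA9-c-Kit- libraries (log2 fold change -3.39 with a standard error of 0.17, limma adjusted p = 4.08e-06). Psap, the precursor of saposins, was at 250.1, 369 and 245 TPM in MA9-c-Kit+ libraries, against 1399.6, 1439.6 and 1171 TPM in MA9-c-Kit- libraries (-2.23). Ctsb (-1.17) and Npc1 (-1.10), the cholesterol exporter of lysosomes, were lower too, while Ctsd was level (220.5, 261 and 193 TPM in MA9-c-Kit+ libraries, against 267, 248 and 271 TPM in MA9-c-Kit- libraries). Cd63, a tetraspanin of lysosomes and primary granules, went against the list at 199, 168 and 138 TPM in MA9-c-Kit+ libraries, against 25.2, 18.2 and 15.1 TPM in MA9-c-Kit- libraries (log2 fold change 3.06 with a standard error of 0.19, limma adjusted p = 1.15e-05), as did the sulfatase Arsb (1.47).

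For MHC class II presentation, 7 of 19 were lower and 1 higher (median -0.56). March1, a ligase that removes class II from the surface, was at 1.33, 1.66 and 1.04 TPM in MA9-c-Kit+ libraries, against 78.2, 66.6 and 77.4 TPM in MA9-c-Kit- libraries (log2 fold change -5.01 with a standard error of 0.17, limma adjusted p = 1.09e-06), and Cd40 and Ifi30 were lower at log2 fold changes of -3.37 and -2.23. The class II genes themselves were low and uneven. Cd74, the invariant chain, was at 1.42, 51.8 and 1.23 TPM in MA9-c-Kit+ libraries, against 18.1, 41.5 and 5.91 TPM in MA9-c-Kit- libraries, where the second library of each fraction was the highest, and was not called (adjusted p = 0.35, limma), but was lower without MA9-c-Kit+ replicate 2 (log2 fold change -2.94, adjusted p = 0.00803). H2-Ab1 was called higher (log2 fold change 1.08) and lost the call without MA9-c-Kit+ replicate 2 or 3 or MA9-c-Kit- replicate 1 or 3 (adjusted p = 0.118, 0.0973, 0.146 and 0.08). Class I genes were close to level, with 2 of 23 higher and none lower (median 0.35). The share called was 8.7%, under the 14.8% of all tested genes. Neither call, Tap2 (1.03) or Calr (1.18), held without MA9-c-Kit+ replicate 2 (0.84 and 0.97). Without MA9-c-Kit+ replicate 1 there were 5 higher, and without MA9-c-Kit- replicate 1 there was 1. MA9-c-Kit+ replicate 2 was again above the rest: H2-K1 was at 992, 2443 and 913 TPM in MA9-c-Kit+ libraries, against 886, 964 and 886 TPM in MA9-c-Kit- libraries. Interferon-stimulated genes split, 4 higher and 10 lower of 45 (median -0.50). There were 16 lower once MA9-c-Kit+ replicate 2 was left out, and 7 higher once MA9-c-Kit- replicate 2 was. Slfn1 and Slfn2, of the Schlafen family, were lower (-4.26 and -3.22), and Gbp3, a guanylate-binding protein, was higher at 35.5, 57.3 and 27.9 TPM in MA9-c-Kit+ libraries, against 10.3, 13.3 and 11.1 TPM in MA9-c-Kit- libraries (1.66). Isg15 was low and level (2.04, 5.48 and 0.8 TPM in MA9-c-Kit+ libraries, against 2.07, 6.02 and 1.17 TPM in MA9-c-Kit- libraries).

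Of 27 matrix proteins and proteases that passed the filter, 15 were lower and none higher (median -1.19). Tgfbi was at 7.87, 10.6 and 9.54 TPM in MA9-c-Kit+ libraries, against 358, 228 and 433 TPM in MA9-c-Kit- libraries (log2 fold change -5.00 with a standard error of 0.23, limma adjusted p = 2.72e-06), and Lgals3, galectin-3, at 51.9, 77.9 and 58.5 TPM in MA9-c-Kit+ libraries, against 907, 913 and 973 TPM in MA9-c-Kit- libraries (-3.89). The sheddase Adam8 was lower at a log2 fold change of -4.21. Of 39 integrins and adhesion receptors, 14 were lower and 3 higher (median -0.78). Itgb2, the beta chain that pairs with CD11b, was at 79.1, 92.4 and 67.7 TPM in MA9-c-Kit+ libraries, against 403, 371 and 337 TPM in MA9-c-Kit- libraries (-2.21), and Jaml was lower at a log2 fold change of -4.21. Cd81, a tetraspanin, was higher at 80.1, 53.5 and 92.2 TPM in MA9-c-Kit+ libraries, against 11.3, 7.99 and 26.7 TPM in MA9-c-Kit- libraries (2.36). Chemokine genes were lower for 6 of 14, and all 14 had a negative log2 fold change (median -1.49). Ccl6 was at 9.41, 8.61 and 5.6 TPM in MA9-c-Kit+ libraries, against 351, 269 and 277 TPM in MA9-c-Kit- libraries (log2 fold change -5.10 with a standard error of 0.20, limma adjusted p = 1.65e-06), and Cxcl2 and Ccr1 were lower at log2 fold changes of -3.21 and -2.71. Cxcr4, the receptor that holds cells in the marrow, was at 270.5, 307 and 233 TPM in MA9-c-Kit+ libraries, against 830.4, 656 and 425 TPM in MA9-c-Kit- libraries. It was lower (-1.19), and -0.97 without MA9-c-Kit- replicate 1.

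Of 54 genes of the actin cytoskeleton, 14 were lower, none was higher and 49 had a negative log2 fold change (median -0.64). Lsp1, an actin-binding protein of leukocytes, was at 85.8, 111 and 53.6 TPM in MA9-c-Kit+ libraries, against 917, 833 and 639 TPM in MA9-c-Kit- libraries (-3.29), and Vim, vimentin, at 606, 602 and 852 TPM in MA9-c-Kit+ libraries, against 1937, 1940.4 and 2090.4 TPM in MA9-c-Kit- libraries (-1.55). Actb had a negative log2 fold change without reaching the fold of 2 (1565, 1906 and 1547 TPM in MA9-c-Kit+ libraries, against 2945, 2629 and 2532 TPM in MA9-c-Kit- libraries). In prostaglandin and leukotriene synthesis 7 of 19 were lower (median -0.84), among them Alox5ap, which feeds the leukotriene enzyme, at 267, 347 and 208 TPM in MA9-c-Kit+ libraries, against 829, 735 and 759 TPM in MA9-c-Kit- libraries (-1.52). Ptgs1, a cyclooxygenase, was called higher (1.23, adjusted p = 0.0296, limma) and lost this without MA9-c-Kit+ replicate 1 or 3 or any MA9-c-Kit- library but the third (adjusted p = 0.0973, 0.087, 0.0606 and 0.101).

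Cytokine receptors were lower for 17 of 34 and higher for 3 (median -1.06), with Kit among the higher. Lifr, the receptor of leukemia inhibitory factor, was at 2.23, 0.75 and 2.39 TPM in MA9-c-Kit+ libraries, against 159, 72.4 and 107 TPM in MA9-c-Kit- libraries (log2 fold change -5.34 with a standard error of 0.32, limma adjusted p = 1.14e-05), and Il13ra1, of the IL-4 and IL-13 receptor, at 1.25, 1.99 and 1.55 TPM in MA9-c-Kit+ libraries, against 62.5, 46.9 and 66.3 TPM in MA9-c-Kit- libraries (-4.51). Il17ra (-2.19) and Csf2ra, the alpha chain for GM-CSF (-1.15), were lower too. Csf3r, the receptor of G-CSF, was not called (75.1, 117 and 49.1 TPM in MA9-c-Kit+ libraries, against 120, 131 and 80.5 TPM in MA9-c-Kit- libraries). Sdc1 and Ptprz1, named in the article as further receptors of IL-34, did not pass the filter. Sdc1 stayed under 1.5 TPM, and Ptprz1 and Il34 were listed at 0 in all 6 libraries.

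Genes of ERK feedback and the immediate early response were lower for 9 of 30 and higher for 3 (median -0.67). Junb was at 119, 76.4 and 56.4 TPM in MA9-c-Kit+ libraries, against 403, 325 and 176 TPM in MA9-c-Kit- libraries (-1.82) and Ier5 was lower at a log2 fold change of -2.08. Fos overlapped and was not called (adjusted p = 0.0573, limma), but with the replicate number as a block, against which its levels ran in parallel, its adjusted p was 0.00131. It also passed without MA9-c-Kit+ replicate 1 (0.04) or MA9-c-Kit- replicate 3 (0.0274). Egr1 ran in parallel as well and was closer between the fractions (74.1, 19.7 and 3.77 TPM in MA9-c-Kit+ libraries, against 80.6, 27.1 and 8.51 TPM in MA9-c-Kit- libraries). The 3 that were higher were Myc, Ccnd1 and Spry2 (6 genes without MA9-c-Kit+ replicate 2). Spry2, a feedback inhibitor of receptor signalling, was at 18.3, 20.3 and 23.3 TPM in MA9-c-Kit+ libraries, against 4.16, 5.39 and 6.11 TPM in MA9-c-Kit- libraries (1.81). Dusp6, the ERK phosphatase, was level (22.5, 25 and 31.4 TPM in MA9-c-Kit+ libraries, against 28.6, 26.2 and 23.4 TPM in MA9-c-Kit- libraries). In the BCL2 family, 3 of 18 were lower and none higher, or 1 higher (Bcl2) without MA9-c-Kit+ replicate 3. The share called was 16.7%, near the 14.8% of all tested genes. Mcl1, on which myeloid cells depend for survival, was at 88.4, 105 and 82 TPM in MA9-c-Kit+ libraries, against 266, 244 and 196 TPM in MA9-c-Kit- libraries (-1.34), and the death-promoting Bmf at 4.62, 5.3 and 5.81 TPM in MA9-c-Kit+ libraries, against 47.7, 35.1 and 36.1 TPM in MA9-c-Kit- libraries (-2.69). Bcl2 was at 16.4, 39.4 and 11.5 TPM in MA9-c-Kit+ libraries, against 11, 11.7 and 7.3 TPM in MA9-c-Kit- libraries and was not called.

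Of 60 genes of S phase and replication, all of which passed the filter, 16 were higher and 1 lower, and 58 had a positive log2 fold change (median 0.83). Many lay just at the fold of 2, and the count was 9 without MA9-c-Kit+ replicate 2, 4 without MA9-c-Kit- replicate 1, 26 without MA9-c-Kit- replicate 2 and 25 when the third library of that fraction was left out. The summed level of the list was 3919.9, 4750.3 and 4433 TPM in MA9-c-Kit+ libraries, against 1963, 2906 and 2811 TPM in MA9-c-Kit- libraries, and the libraries did not overlap. Mcm6, of the replicative helicase, was at 179.9, 264 and 205 TPM in MA9-c-Kit+ libraries, against 76.7, 124 and 114 TPM in MA9-c-Kit- libraries. Ung, the uracil glycosylase, was at 37.9, 33.5 and 34 TPM in MA9-c-Kit+ libraries, against 5.95, 13.2 and 14.2 TPM in MA9-c-Kit- libraries (log2 fold change 1.66 with a standard error of 0.27, limma adjusted p = 0.00182), and Exo1, an exonuclease, at 22.5, 17.6 and 17.4 TPM in MA9-c-Kit+ libraries, against 4.83, 6.18 and 8.46 TPM in MA9-c-Kit- libraries (1.45). Of the 16 members that were higher, only these 2 were called whichever library was left out. Mcm5, of the same helicase, was at 143, 228 and 182 TPM in MA9-c-Kit+ libraries, against 59.8, 111 and 104 TPM in MA9-c-Kit- libraries (1.02; 0.86 without MA9-c-Kit+ replicate 2 and 0.75 without MA9-c-Kit- replicate 1). E2f2 was the single member that was lower, and it was lower by a wide margin, at 7.5, 8.6 and 9.96 TPM in MA9-c-Kit+ libraries, against 84.5, 74.4 and 66.9 TPM in MA9-c-Kit- libraries (log2 fold change -2.98 with a standard error of 0.15, limma adjusted p = 4.08e-06). Of 63 mitosis genes, 2 were higher and 59 had a positive log2 fold change (median 0.54). The share called was 3.17%, under the 14.8% of all tested genes. Cdk1, the kinase that starts mitosis, was at 166, 177 and 159 TPM in MA9-c-Kit+ libraries, against 78.8, 102 and 83.7 TPM in MA9-c-Kit- libraries, and Ccnb1, its cyclin, at 60.7, 66.2 and 72.7 TPM in MA9-c-Kit+ libraries, against 37.4, 47.7 and 44.2 TPM in MA9-c-Kit- libraries. Neither overlapped and neither reached the fold of 2. Without MA9-c-Kit+ replicate 3, MA9-c-Kit- replicate 1 or MA9-c-Kit- replicate 2 the count of mitosis genes was 4, 1 or 6.

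In the list of CDK inhibitors, D cyclins and quiescence genes, 14 of 30 were lower and 3 higher, 21 had a negative log2 fold change, and 9 were lower without MA9-c-Kit+ replicate 3 or MA9-c-Kit- replicate 1. Cdkn1b, which encodes p27, was at 26.8, 34.8 and 28 TPM in MA9-c-Kit+ libraries, against 88.1, 78.9 and 70.2 TPM in MA9-c-Kit- libraries (-1.38), Cdkn1a, p21, at 25.4, 29.3 and 23.4 TPM in MA9-c-Kit+ libraries, against 61.5, 58.5 and 51.8 TPM in MA9-c-Kit- libraries (-1.11), and Cdkn2d at 31.4, 50.7 and 40.4 TPM in MA9-c-Kit+ libraries, against 112, 129.8 and 136 TPM in MA9-c-Kit- libraries (-1.62). The 3 higher members were all on the activating side. The D cyclin Ccnd1 was at 21, 21.1 and 31.3 TPM in MA9-c-Kit+ libraries, against 3, 5.3 and 8.83 TPM in MA9-c-Kit- libraries (1.99), and Ccnd2 at 22, 10.4 and 23.3 TPM in MA9-c-Kit+ libraries, against 2.35, 0.99 and 5.59 TPM in MA9-c-Kit- libraries (2.39). Cdk4, their partner, had a log2 fold change of 1.03, and of 0.92 without MA9-c-Kit+ replicate 2 and 0.87 without MA9-c-Kit- replicate 1.

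**Figure D5:**
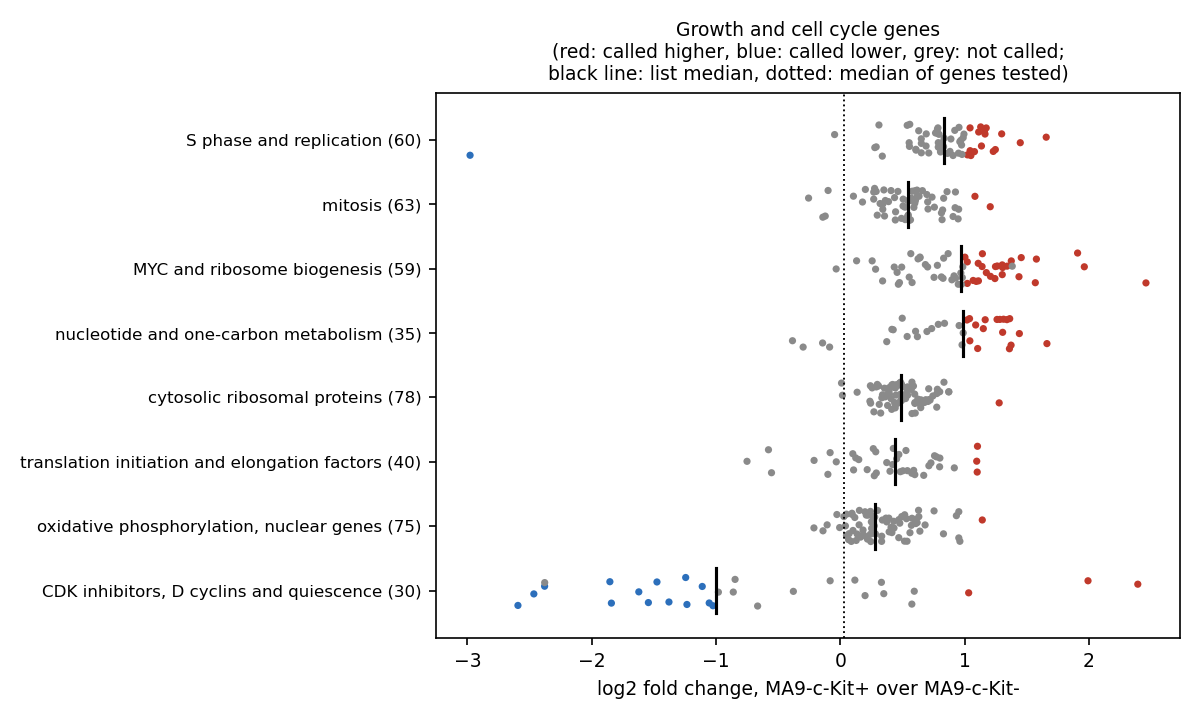
Log2 fold change of MA9-c-Kit+ over MA9-c-Kit- cells (x axis) of each gene in 8 growth and cell cycle lists (y axis, number that passed the filter). Black lines are list medians, highest for nucleotide and one-carbon metabolism (0.99) and lowest, at a fall near 2-fold, for CDK inhibitors and quiescence, and the dotted line is the median of all tested genes, 0.03; height within a row carries no value.

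Of 59 genes of the MYC and ribosome biogenesis list that passed the filter, 26 were higher, none was lower and 58 had a positive log2 fold change (median 0.97). Without MA9-c-Kit- replicate 1, the lowest library for this list, 15 were higher. Srm, spermidine synthase, was at 159, 153 and 151 TPM in MA9-c-Kit+ libraries, against 26.7, 40.3 and 60.5 TPM in MA9-c-Kit- libraries (log2 fold change 1.91 with a standard error of 0.24, limma adjusted p = 0.000467). Wdr12, Nop2 and Rrs1, which act in assembly of the large subunit, were higher at log2 fold changes of 1.57, 1.38 and 1.30. Npm1, nucleophosmin, was at 1317, 1127 and 1609 TPM in MA9-c-Kit+ libraries, against 593, 775 and 853 TPM in MA9-c-Kit- libraries without reaching the fold of 2. Ncl, nucleolin, lay at it (1.02), and under it without MA9-c-Kit+ replicate 1 or 3 or MA9-c-Kit- replicate 1 (0.97, 0.85 and 0.85). The 78 cytosolic ribosomal proteins were all positive, with a median of 0.49. Only Rpl12 was called (88.5, 92.1 and 68.9 TPM in MA9-c-Kit+ libraries, against 23.1, 38.2 and 42.2 TPM in MA9-c-Kit- libraries). That is 1.28% of the list, under the 14.8% of all tested genes. Without MA9-c-Kit+ replicate 3, 2 of the ribosomal proteins were called. The summed level of all 78 was 158871, 179598 and 169078 TPM in MA9-c-Kit+ libraries, against 110530, 122763 and 134552 TPM in MA9-c-Kit- libraries, so every MA9-c-Kit+ library was above every MA9-c-Kit- library. Translation factors had a median of 0.44, with 3 of 40 higher, none of which held without MA9-c-Kit- replicate 1, and 5 higher without MA9-c-Kit- replicate 3. Their share called was 7.5%, under the 14.8% of all tested genes.

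Of 35 genes of nucleotide and one-carbon metabolism, 17 were higher and none lower (median 0.99), with 11 called when MA9-c-Kit- replicate 1 was left out. Shmt1, which draws one-carbon units from serine, was at 38.1, 35.1 and 43.6 TPM in MA9-c-Kit+ libraries, against 9.34, 13.1 and 12.6 TPM in MA9-c-Kit- libraries (1.66), and its mitochondrial relative Shmt2 at 187, 158 and 237 TPM in MA9-c-Kit+ libraries, against 46.7, 80 and 104 TPM in MA9-c-Kit- libraries (1.37). Gart and Atic, of purine synthesis, were higher at log2 fold changes of 1.36 and 1.15. In the list of amino acid supply and targets of ATF4, 4 of 32 were higher and 2 lower. This is 18.8% called, against 14.8% of all tested genes. Only 2 were higher without MA9-c-Kit+ replicate 3, MA9-c-Kit- replicate 1 or MA9-c-Kit- replicate 2. Phgdh, the first enzyme of serine synthesis, was at 72.4, 61.2 and 88.4 TPM in MA9-c-Kit+ libraries, against 4.33, 11.1 and 12.1 TPM in MA9-c-Kit- libraries. The fractions did not overlap (log2 fold change 2.97 with a standard error of 0.32, limma adjusted p = 0.000237). Psat1, the next enzyme, was higher at a log2 fold change of 1.27, while Ddit4 and Nupr1, stress genes of that list, were lower (-2.77 and -2.89). Asns (1.96) and Slc7a5 (1.27) were called, but MA9-c-Kit- replicate 3 was the highest of its fraction for both, and each lost the call without MA9-c-Kit+ replicate 3 (adjusted p = 0.0574 and 0.13), MA9-c-Kit- replicate 1 (0.0657 and 0.142) or MA9-c-Kit- replicate 2 (0.0633 and 0.116). Slc7a5 was also lost without MA9-c-Kit+ replicate 1 (0.112).

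Energy metabolism differed less. Of 75 nuclear genes of oxidative phosphorylation, 70 were positive (median 0.28) and 1 was called, or 0 to 5 without 1 library (0 without MA9-c-Kit- replicate 1 and 5 without MA9-c-Kit- replicate 3). Genes of the mitochondrial genome had a median of -0.07, and mt-Co1 was at 12642, 8613 and 14115 TPM in MA9-c-Kit+ libraries, against 12207, 12229 and 11907 TPM in MA9-c-Kit- libraries. mt-Nd4l was listed at 0 in all MA9-c-Kit+ libraries and at 431, 107 and 367 TPM in MA9-c-Kit- libraries. It overlaps mt-Nd4, reads of overlapping genes may be assigned to either, and a listed 0 can be a failed estimate, so no fold is given. Glycolysis genes were near level (median 0.11), with Slc16a1, a lactate carrier, higher (17.6, 15.3 and 16.1 TPM in MA9-c-Kit+ libraries, against 1.45, 3.21 and 8.51 TPM in MA9-c-Kit- libraries) and Pfkfb4, Aldoc and Pfkp lower. Cholesterol genes had 1 higher and 2 lower of 35 (median -0.02), and 0 higher without MA9-c-Kit- replicate 1. Their share called was 8.57%, under the 14.8% of all tested genes. In iron and heme metabolism Hmox1, the heme oxygenase, was lower at 11.5, 13.2 and 14 TPM in MA9-c-Kit+ libraries, against 123, 125 and 120.3 TPM in MA9-c-Kit- libraries (log2 fold change -3.16 with a standard error of 0.14, limma adjusted p = 2.12e-06), and Slc11a1, an iron carrier of phagosomes, at 0.68, 2.56 and 0.84 TPM in MA9-c-Kit+ libraries, against 68, 48.8 and 57.7 TPM in MA9-c-Kit- libraries (-4.72). Alas1, the first enzyme of heme synthesis, was higher at 841, 825 and 506 TPM in MA9-c-Kit+ libraries, against 275, 286 and 336 TPM in MA9-c-Kit- libraries (1.24). Tfrc, the transferrin receptor, was not called at 49, 27.6 and 43.9 TPM in MA9-c-Kit+ libraries, against 7.28, 9.25 and 41.4 TPM in MA9-c-Kit- libraries, and was higher without MA9-c-Kit- replicate 3, the library with red cell transcripts (log2 fold change 2.12, adjusted p = 0.000834).

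Chromatin and WNT genes showed single changes. Of 38 genes of Polycomb and DNA methylation, 5 were higher and 2 lower (median 0.06), or 18.4% called against 14.8% of all tested genes. Idh2, a mitochondrial enzyme that supplies the cofactor of demethylases, was at 131, 169.7 and 112 TPM in MA9-c-Kit+ libraries, against 45.1, 52.7 and 40.1 TPM in MA9-c-Kit- libraries (1.55), and Dnmt3l was higher at a log2 fold change of 1.39. Kdm6b and Cbx7 were lower at log2 fold changes of -1.42 and -1.20. Dnmt3a (32.2, 27.9 and 13.5 TPM in MA9-c-Kit+ libraries, against 16.4, 9.69 and 9.11 TPM in MA9-c-Kit- libraries) and Ezh2 (74.3, 129.6 and 64.7 TPM in MA9-c-Kit+ libraries, against 44.8, 61 and 34.8 TPM in MA9-c-Kit- libraries) were not called. Both were close to a call. Dnmt3a was higher without MA9-c-Kit+ replicate 3 (1.33) or MA9-c-Kit- replicate 1 (1.21). Ezh2 was higher without MA9-c-Kit+ replicate 3 (1.09) or MA9-c-Kit- replicate 2 (1.09). Ctnnb1, beta-catenin, was level at 126, 161 and 156 TPM in MA9-c-Kit+ libraries, against 137, 111 and 149 TPM in MA9-c-Kit- libraries. The 3 WNT list members called higher, of 24, were Myc, Ccnd1 and Sox13. None was lower, so 12.5% of that list was called, against 14.8% of all tested genes.

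The largest changes included genes outside these lists. Mgam, an intestinal-type glucosidase, was at 52.3, 31.4 and 51.1 TPM in MA9-c-Kit+ libraries, against 1.7, 2.46 and 1.43 TPM in MA9-c-Kit- libraries (log2 fold change 3.98 with a standard error of 0.21, limma adjusted p = 7.06e-06). Vegfa, the vascular growth factor, was at 55.1, 34.4 and 27.6 TPM in MA9-c-Kit+ libraries, against 3.25, 4.3 and 1.77 TPM in MA9-c-Kit- libraries (log2 fold change 3.28 with a standard error of 0.28, limma adjusted p = 7.29e-05), and Rapgef3, a cyclic AMP sensor, at 34.7, 26.7 and 26.5 TPM in MA9-c-Kit+ libraries, against 2.76, 2 and 1.85 TPM in MA9-c-Kit- libraries (3.24). Tmem40, Chit1, Serpine2 and Serpina3g were also among the 15 largest rises (3.07, 3.13, 2.98 and 3.13). Among the 15 largest falls were Arhgef37, at 0.78, 0.79 and 0.33 TPM in MA9-c-Kit+ libraries, against 117, 79 and 69.4 TPM in MA9-c-Kit- libraries (-5.75), Ms4a8a (-5.74), Bst1, an ectoenzyme of myeloid cells (-5.27), St3gal5, which makes the ganglioside GM3 (-5.21), and Sirpb1c (-5.18). Genes were eligible for the 15 rises and the 15 falls only if the fractions did not overlap, so that trait is no result. Fgl2 was higher at 20.8, 26.2 and 12.8 TPM in MA9-c-Kit+ libraries, against 7.57, 7.85 and 7.34 TPM in MA9-c-Kit- libraries (1.23), and Ikzf2 was positive but under the fold of 2 at 3.25, 3.9 and 2.73 TPM in MA9-c-Kit+ libraries, against 1.53, 0.98 and 1.17 TPM in MA9-c-Kit- libraries (0.95).

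Many markers of other cells did not pass the filter. Of 23 T and NK cell markers 2 passed the filter, and Cd3e did not exceed 0.23 TPM; Nkg7, counted here and among primary granule proteins, is the 1 called. Of 18 B cell markers 5 passed, with 1 lower and none higher. Of 18 stromal and endothelial markers 5 passed, with 2 lower and none higher, and Cdh5 was at 0.11 TPM or less. Without MA9-c-Kit+ replicate 1 or 3 or MA9-c-Kit- replicate 1, 1 stromal or endothelial marker was lower. The shares called were 20% for B cell and 40% for stromal and endothelial markers, against 14.8% of all tested genes. Summed levels of these lists ran from 30 to 97.7, 57.8 to 310 and 67.8 to 199 TPM in MA9-c-Kit+ libraries, against 5.78 to 16.5, 72.5 to 207 and 119 to 168 TPM in MA9-c-Kit- libraries. Of 18 megakaryocyte and platelet markers 9 passed, with 3 lower and 1 higher (44.4% called), and Pf4 was at 0.3 TPM or less. None of these was higher without MA9-c-Kit+ replicate 1 or MA9-c-Kit- replicate 1 or 2. Vwf was lower at 3.22, 1.68 and 4.72 TPM in MA9-c-Kit+ libraries, against 11.5, 11.3 and 11.2 TPM in MA9-c-Kit- libraries (-1.62). Of 21 genes of mast cells, basophils and eosinophils 9 passed, and 5 were at 0 in all 6 libraries, the IgE receptor chain Fcer1a among them. Hdc, which makes histamine, was higher at 3.85, 10 and 2.76 TPM in MA9-c-Kit+ libraries, against 0.14, 0.36 and 0.18 TPM in MA9-c-Kit- libraries (2.26), highest in replicate 2. Ear2 was called lower, and with the replicate number as a block its adjusted p was 0.0512. It also lost the call without MA9-c-Kit+ replicate 1 (adjusted p = 0.0695) or MA9-c-Kit- replicate 1 or 2 (0.0677 and 0.0707). Of the 12 erythroid markers that passed none was called. Without MA9-c-Kit- replicate 3, 1 was lower and 1 higher, without MA9-c-Kit- replicate 2 there were 3 lower, and without MA9-c-Kit+ replicate 3 or MA9-c-Kit- replicate 1 there was 1 lower. Their part in the other differences was not tested beyond leaving out that library.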

How the data were processed

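RNA from sorted bone marrow cells was sequenced as TruSeq RNA v2 libraries, per the labels (the article's methods name a microarray). The authors deposited 1 table of TPM values for 55536 genes, made on the Majorbio Cloud Platform. The unit was read from the values. The aligner, quantifier and build are not given in the sources used here, and depth is unknown. Each library counts toward its labelled group.

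The filter asked for 1 TPM or more in 3 or more of the 9 libraries, which 13722 genes passed. limma 3.58.1 (R 4.3.3) fitted 3 group means to log2(TPM + 1) with a trended prior. Coordinates are from GENCODE M21 (GRCm38), where 55450 identifiers were found and 86 were not. Names come from the table.

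Genes were named by rule: core members of 48 lists, up to 4 called members per list and direction by p, the 15 largest rises and falls with at least 10 TPM and no overlap, and genes the article names. Some of these genes are not reported here. Members and lists were chosen with earlier results of these data known. Deviations of libraries with the same replicate number correlated at 0.202, 0.239 and 0.443. Those with different numbers correlated at -0.324 to 0.159. The labels do not say that the numbers pair the samples. The main fit did not pair libraries, and the replicate number entered as a block in an alternative setting only. Alternatives covered filters, pseudocounts, scaling, samples, replicate block and left-out libraries.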

Additional observations from a re-analysis of the deposited data

How the results depend on the processing

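No named gene changed sign past the test in any planned setting. Without a minimum fold, 5252 genes passed, 2649 higher and 2603 lower. Leaving out 1 library gave 1746 to 2311 calls. With the replicate number as a block, which treats same-numbered libraries as pairs, 796 genes were higher and 1286 lower. Of these calls, 1986 were shared with the fit without the block. Of the genes named by rule, the block changed the call of Cd34, Cebpe, Cx3cr1, Ear2, Fos, Gata2, Hbb-bs and S100a8 and of no other. H2-Aa, not called (log2 fold change 0.28, limma adjusted p = 0.772), stood at -1.59 (adjusted p = 0.0117) with replicate 2 of MA9-c-Kit+ and replicate 3 of MA9-c-Kit- both left out. Other filters, pseudocounts and scalings gave 1706 to 2481 calls. With the MA9-IL-34 libraries left out of the fit, 718 genes were higher and 1163 lower. Of the genes given here, Adgre1, Asns, C1qa, C1qc, Camp, Ear2, Gata2, H2-Ab1, Irf8, Ptgs1, S100a8 and Slc7a5 then lost their call. Those calls depend on a spread estimated partly from a group outside the comparison. Low genes are limited most, since their fold depends on the pseudocount, and TPM carry no counting error.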
